A study of Mus musculus with 58 samples.

Results

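The phagocyte NADPH oxidase subunits described here were the 5 genes Cybb, Cyba, Ncf1, Ncf4 and Rac2, taken by symbol from the 15171 genes of the count table. All 5 were listed and all 5 passed the filter on low counts. RNA-seq was run on 58 mice of the C57BL/6 background, females and males, at the age of 3 months, 14 days after traumatic brain injury (TBI) or sham surgery. TBI was a controlled cortical impact, a piston blow to the exposed cortex, and sham mice had the anaesthesia and craniotomy without the blow. Every mouse, sham mice included, carried human APOE3 (E3) or human APOE4 (E4) in place of both mouse Apoe alleles, and had either 2 copies of Abca1 (Abca1+/+) or 1 copy (Abca1+/-), a transporter that loads APOE with lipid. The sham groups held 8 E3/Abca1+/+, 7 E3/Abca1+/-, 7 E4/Abca1+/+ and 7 E4/Abca1+/- mice, and the TBI groups held 8, 6, 7 and 8 mice in the same order. Each library came from 1 mouse and from hippocampus and cortex at the injury site pooled from the same mouse, so cell types and the 2 regions were not separated. The APOE replacement and the Abca1 deletion are both germline, so no cell type carried them alone.

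This oxidase moves electrons from cytosolic NADPH across a membrane onto oxygen and so makes superoxide, the parent of hydrogen peroxide and other oxidants, inside phagosomes or outside the cell. Cybb encodes NOX2, the electron-carrying core, and Cyba encodes p22phox, its membrane partner, without which NOX2 is unstable. The other subunits wait in the cytosol of resting cells. Ncf1 (p47phox) is the organiser that is phosphorylated and docks on p22phox, Ncf4 (p40phox) binds a phagosomal lipid, and Rac2 is the small GTPase of blood-lineage cells that completes the complex. In brain the oxidase is known mostly from microglia and from blood-derived phagocytes, and loss of any of several of its subunits in people causes chronic granulomatous disease.

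Because all 5 genes rose together after injury (values below), the stretch directly upstream of their start sites is shown for the members that the RefSeq promoter table (build GRCm38.p6) held, which were Cybb, Cyba and Ncf1. Ncf4 and Rac2 had no entry. Each line gives 250 bases read 5′ to 3′ on the gene's strand, which was the minus strand in all 3, and ends at the last base before the start site. For Cybb the start site used lies inside the annotated gene span (chrX:9435252-9487766), so it is not the outermost start of that gene. The Ncf1 start site also lies just inside its span (chr5:134220053-134229628), which the end of its stretch overlaps. Capitals mark the letters CCAAT or GGGCGG, or CCGCCC, which is GGGCGG on the opposite strand. These 2 motifs were added to the search after the windows had been read.
Cybb, chrX:9469325-9469574: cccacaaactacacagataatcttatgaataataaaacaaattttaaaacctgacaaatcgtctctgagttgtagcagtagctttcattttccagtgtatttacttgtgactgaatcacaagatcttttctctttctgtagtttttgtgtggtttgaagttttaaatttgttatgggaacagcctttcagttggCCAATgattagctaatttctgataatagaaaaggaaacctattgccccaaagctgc
Cyba, chr8:122432941-122433190: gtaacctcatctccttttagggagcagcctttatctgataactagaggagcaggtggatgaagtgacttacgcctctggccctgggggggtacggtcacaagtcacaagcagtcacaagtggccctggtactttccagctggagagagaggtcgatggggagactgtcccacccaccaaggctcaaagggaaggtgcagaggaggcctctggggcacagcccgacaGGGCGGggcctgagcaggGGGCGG
Ncf1, chr5:134229626-134229875: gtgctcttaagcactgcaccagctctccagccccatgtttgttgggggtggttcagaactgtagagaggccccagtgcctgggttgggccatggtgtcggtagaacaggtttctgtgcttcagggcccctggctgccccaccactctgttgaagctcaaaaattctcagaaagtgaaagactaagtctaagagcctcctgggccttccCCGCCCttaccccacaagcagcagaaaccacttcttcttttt
The Cybb stretch was AT-rich, with 34% G and C, and held CCAAT with its first base 56 bases before the start. The Cyba stretch was 60% G and C and ended in a pair of GGGCGG runs, and the Ncf1 stretch was 54.4% G and C with a single run on the opposite strand. Over the 32851 windows in the table the median upstream share of G and C was 52.4%, and 33.8% of the upstream stretches held CCAAT and 32.7% held GGGCGG on either strand. Further searches of the 300-base windows, which add 50 bases after the start, used GAGGAA, the core letters of sites of PU.1 (encoded by Spi1), the ETS-IRF composite element, a joined site of such a core with an IRF core, and TGACTCA, an AP-1 site. Of the 3 members only Cybb held any of these, and its run lay just after the start.
Cybb, chrX:9469304-9469324: tgtTTTCATTTCCTCatcaga
The capitals mark the composite element on the opposite strand (4 bases after the start) overlapping GAGGAA on the opposite strand (10 bases after it). The composite element was found in 2.72% of all windows, GAGGAA in 28.3% and TGACTCA in 5.20%. These are matches of letters and say nothing on binding in these mice.

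Counts assigned to genes summed to 4421308 to 37877346 per library, and the Abca1+/- libraries were deeper (median 18871446, n = 28) than the Abca1+/+ libraries (median 8350020, n = 30), so Abca1 comparisons also compare deeper with shallower libraries. Values are CPM, the counts of a gene relative to the library total after TMM scaling, and 3 counts corresponded to 0.0773 to 0.685 CPM depending on the library. Abca1 itself was lower with 1 copy by edgeR's quasi-likelihood test averaged over isoform and injury (log2 fold change -0.42, adjusted p = 0.000816). Within single comparisons it was called in E3 sham mice (-0.45, SE 0.08, adjusted p = 0.00999, edgeR) and not in E3 TBI (-0.71, SE 0.18, 0.124), E4 sham (-0.36, SE 0.09, 0.0785) or E4 TBI mice (-0.18, SE 0.25, 0.755). The labelled tissue carried the markers of neurons, astrocytes, oligodendrocytes and microglia. A male E4/Abca1+/- sham mouse, replicate 2, stood apart from its group in Cybb and Rac2, and results that rest on it are given with and without it.

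TBI raised all 5 oxidase genes in all 4 genotypes. Tested with edgeR on all 15171 genes at an adjusted p of 0.05, 5 of 5 were called higher in each genotype, where the share of all genes called higher was 13.3% in E3/Abca1+/+, 13.7% in E3/Abca1+/-, 9.24% in E4/Abca1+/+ and 19.7% in E4/Abca1+/- mice. The median log2 fold change of the 5 was 1.88, 1.73, 1.89 and 2.41 in the same order, against 0.01, 0.01, 0.00 and 0.03 over all genes. Averaged over the genotypes, Cybb rose by 4.06 (SE 0.27), Ncf4 by 2.04 (SE 0.14), Rac2 by 1.95 (SE 0.12), Cyba by 1.92 (SE 0.12) and Ncf1 by 1.47 (SE 0.09) on the log2 scale, in a comparison where 53.3% of genes were called in either direction. The plot of single mice shows these gaps gene by gene.

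**Figure D1:**
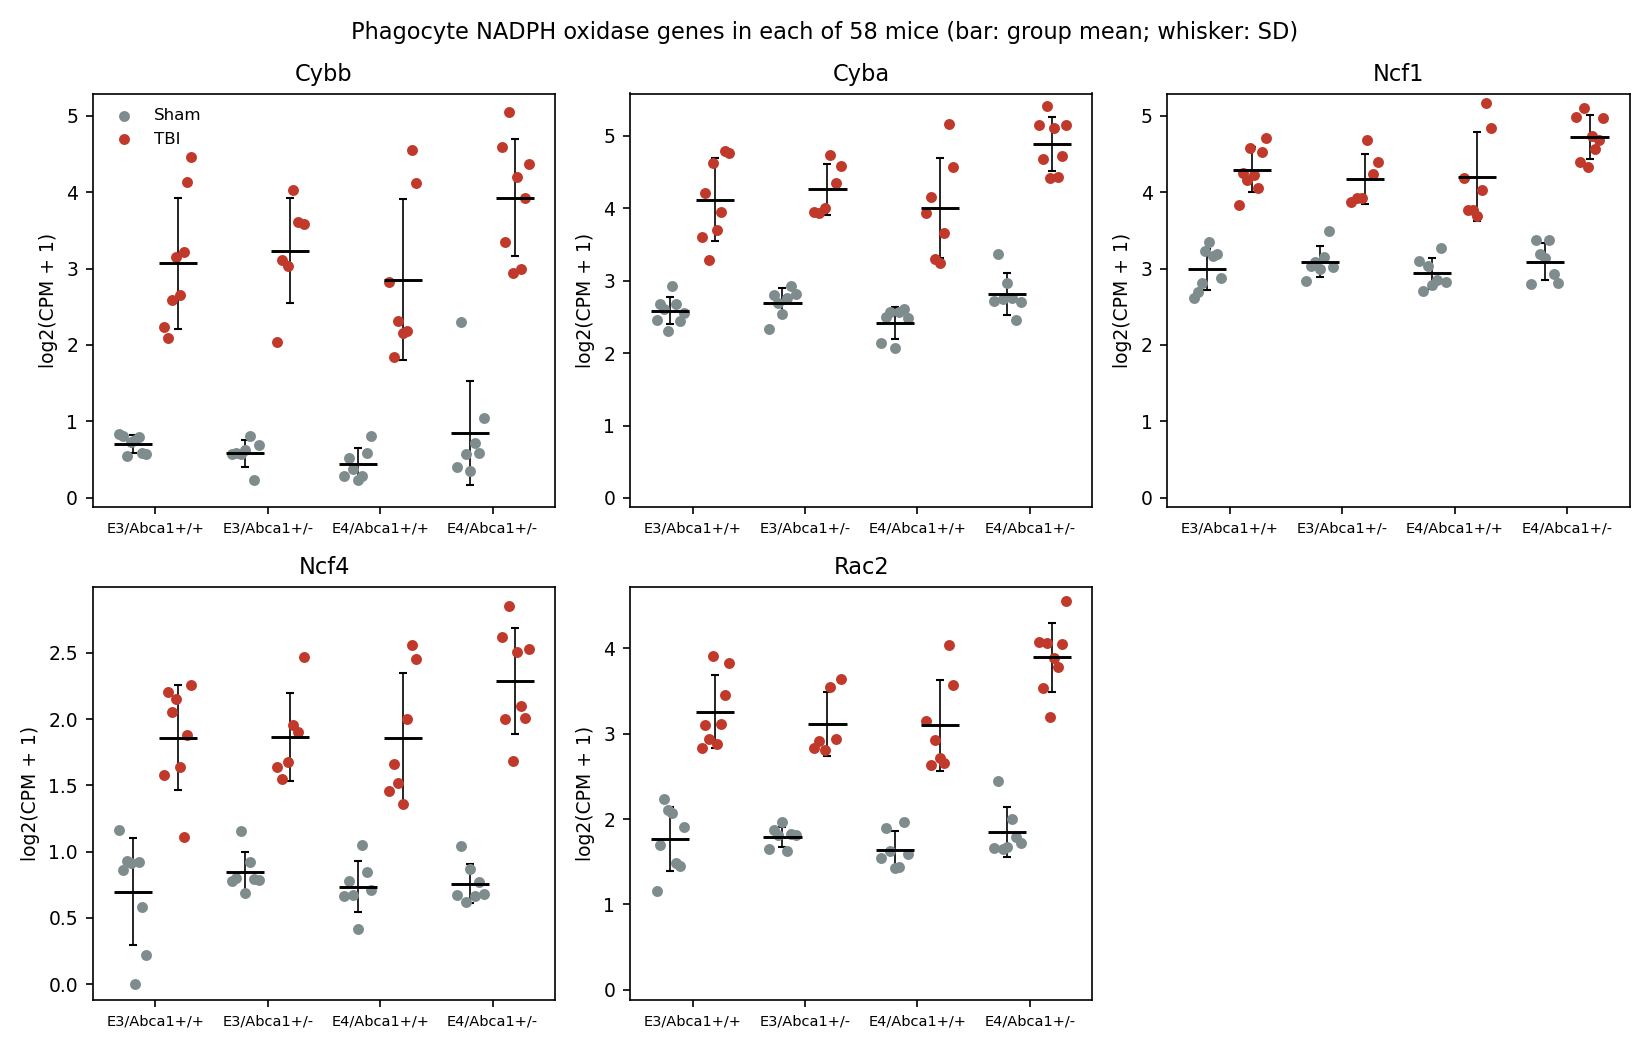
Each point is 1 of 58 mice, on the y axis as log2(CPM + 1), in sham (grey) and TBI (red) mice of 4 genotypes on the x axis, with the group mean as a bar and the SD as a whisker. TBI points lie above the sham points of their genotype apart from a touch of the ranges for Ncf4 in E3/Abca1+/+ mice, and the high sham point of Cybb in E4/Abca1+/- is replicate 2, at 3.91 CPM.

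Cybb, the catalytic core, was close to the counting floor without injury. In E3/Abca1+/+ mice it measured 0.454, 0.673 and 0.774 CPM (lowest, median and highest) in sham and 3.28, 6.58 and 21.0 CPM in TBI mice. In E3/Abca1+/- mice the same 3 values were 0.169, 0.496 and 0.754 CPM in sham and 3.11, 9.35 and 15.3 CPM in TBI. No E3 mouse with TBI came near the sham range, and the injured mice spread far more widely than the sham mice. For E4/Abca1+/+ mice the sham values were 0.168, 0.299 and 0.744 CPM and the TBI values 2.60, 3.96 and 22.4 CPM. For E4/Abca1+/- mice they were 0.274, 0.492 and 3.91 CPM in sham and 6.71, 15.8 and 32.1 CPM in TBI. Sham and TBI did not overlap in any genotype, but the E4/Abca1+/+ injured group held 5 mice of at most 6.11 CPM and 2 of at least 16.4 CPM, and sham replicate 2 of E4/Abca1+/- lay above the lowest injured mice of other genotypes. The log2 fold changes were 3.82 (SE 0.43, adjusted p = 1.67e-06, edgeR) in E3/Abca1+/+, 4.14 (SE 0.33, 2.91e-07) in E3/Abca1+/-, 4.34 (SE 0.61, 0.000192) in E4/Abca1+/+ and 3.91 (SE 0.52, 1.92e-05) in E4/Abca1+/- mice. Without sham replicate 2 the E4/Abca1+/- value was 4.87 (SE 0.45, adjusted p = 7.47e-07 by edgeR), the top of a range of 3.64 to 4.87 over 23 alternatives with adjusted p from 9.35e-11 to 8.54e-05. Of the 29 sham libraries 8 held 3 counts of Cybb or fewer, so the size of its rise rests on few sham reads.

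Cyba, the membrane partner, was well above the floor in every library. In E3/Abca1+/+ mice its lowest, median and highest values were 3.96, 5.00 and 6.63 CPM in sham and 8.72, 16.0 and 26.7 CPM in TBI mice. E3/Abca1+/- mice ran from 4.03 over 5.74 to 6.59 CPM in sham and from 14.3 over 17.3 to 25.6 CPM in TBI. The gap between the treatments was wider in the second of these genotypes, whose injured mice had no low values. In E4/Abca1+/+ mice Cyba was 3.20, 4.67 and 5.11 CPM in sham and 8.48, 14.2 and 34.7 CPM in TBI. In E4/Abca1+/- mice it was 4.48, 5.71 and 9.37 CPM in sham and 20.4, 29.5 and 41.7 CPM in TBI. Every injured E4/Abca1+/- mouse lay above the E4/Abca1+/+ injured median, and no genotype showed an overlap with sham. The rise was 1.81 (SE 0.21, adjusted p = 2.43e-06, edgeR), 1.75 (SE 0.15, 6.12e-07), 1.89 (SE 0.29, 0.000341) and 2.24 (SE 0.18, 3.88e-07) on the log2 scale, in the order E3/Abca1+/+, E3/Abca1+/-, E4/Abca1+/+ and E4/Abca1+/-.

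Ncf1, the organiser, had the smallest log2 fold change of the 5 in every genotype. It measured 5.11, 7.13 and 9.14 CPM in sham and 13.2, 17.9 and 25.3 CPM in TBI mice of E3/Abca1+/+, and 6.13, 7.20 and 10.2 CPM against 13.6, 16.1 and 24.8 CPM in E3/Abca1+/-. Over E4/Abca1+/+ mice it was 5.53, 6.22 and 8.61 CPM in sham and 11.9, 15.4 and 34.9 CPM in TBI, and over E4/Abca1+/- mice 5.94, 7.84 and 9.38 CPM against 19.1, 25.2 and 33.3 CPM. Injured and sham mice were separate in all 4 genotypes, and over the whole series the lowest injured mouse (11.9 CPM) was above the highest sham mouse (10.2 CPM). Rac2 was also separate over the whole series (5.19 against 4.44 CPM), while Cybb, Cyba and Ncf4 were not. The share of all genes that separate over the whole series was not computed. The log2 fold changes were 1.45 (SE 0.14, adjusted p = 3.88e-07, edgeR), 1.20 (SE 0.14, 1.58e-05), 1.45 (SE 0.24, 0.000534) and 1.76 (SE 0.14, 3.88e-07) in that genotype order.

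Ncf4, the lipid-binding subunit, was the other member near the floor in sham mice, with 3 of 29 libraries at 3 counts or fewer. In E3/Abca1+/+ mice it was 0, 0.851 and 1.24 CPM in sham and 1.16, 2.91 and 3.79 CPM in TBI mice. This was the only one of the 20 comparisons of a member within a genotype in which the treatments overlapped, by the lowest injured mouse. E3/Abca1+/- mice had 0.610, 0.732 and 1.23 CPM in sham and 1.93, 2.47 and 4.54 CPM in TBI. E4/Abca1+/+ mice had 0.337, 0.638 and 1.07 CPM in sham and 1.56, 2.16 and 4.90 CPM in TBI. E4/Abca1+/- mice had 0.534, 0.599 and 1.06 CPM in sham and 2.21, 3.97 and 6.23 CPM in TBI. The sham medians were alike across genotypes, while the injured E4/Abca1+/- median was above the other 3. Ncf4 rose by 1.88 (SE 0.32, adjusted p = 0.000155, edgeR), 1.73 (SE 0.22, 3.08e-05), 2.01 (SE 0.32, 0.000439) and 2.52 (SE 0.23, 8.86e-07) on the log2 scale.

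Rac2, the GTPase, behaved like Cyba in size. Its values in E3/Abca1+/+ mice were 1.24, 2.50 and 3.70 CPM in sham and 6.11, 7.62 and 14.1 CPM in TBI, and in E3/Abca1+/- mice 2.08, 2.50 and 2.90 CPM against 6.02, 6.60 and 11.4 CPM. E4/Abca1+/+ mice gave 1.68, 2.02 and 2.90 CPM in sham and 5.19, 6.62 and 15.5 CPM in TBI, and E4/Abca1+/- mice 2.14, 2.30 and 4.44 CPM against 8.16, 14.7 and 22.4 CPM. Sham and TBI did not overlap in any genotype, and 7 of 8 injured E4/Abca1+/- mice measured 10.6 CPM or more. Rac2 rose by 1.89 (SE 0.23, adjusted p = 3.86e-06, edgeR), 1.67 (SE 0.17, 2.57e-06), 1.85 (SE 0.25, 0.000144) and 2.41 (SE 0.21, 5.12e-07) on the log2 scale. Counted over mice, 4, 5, 5 and 5 of the 5 members had every injured mouse above every sham mouse, where 4.36%, 6.57%, 3.76% and 7.36% of all genes did so in the same genotypes.

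**Figure D2:**
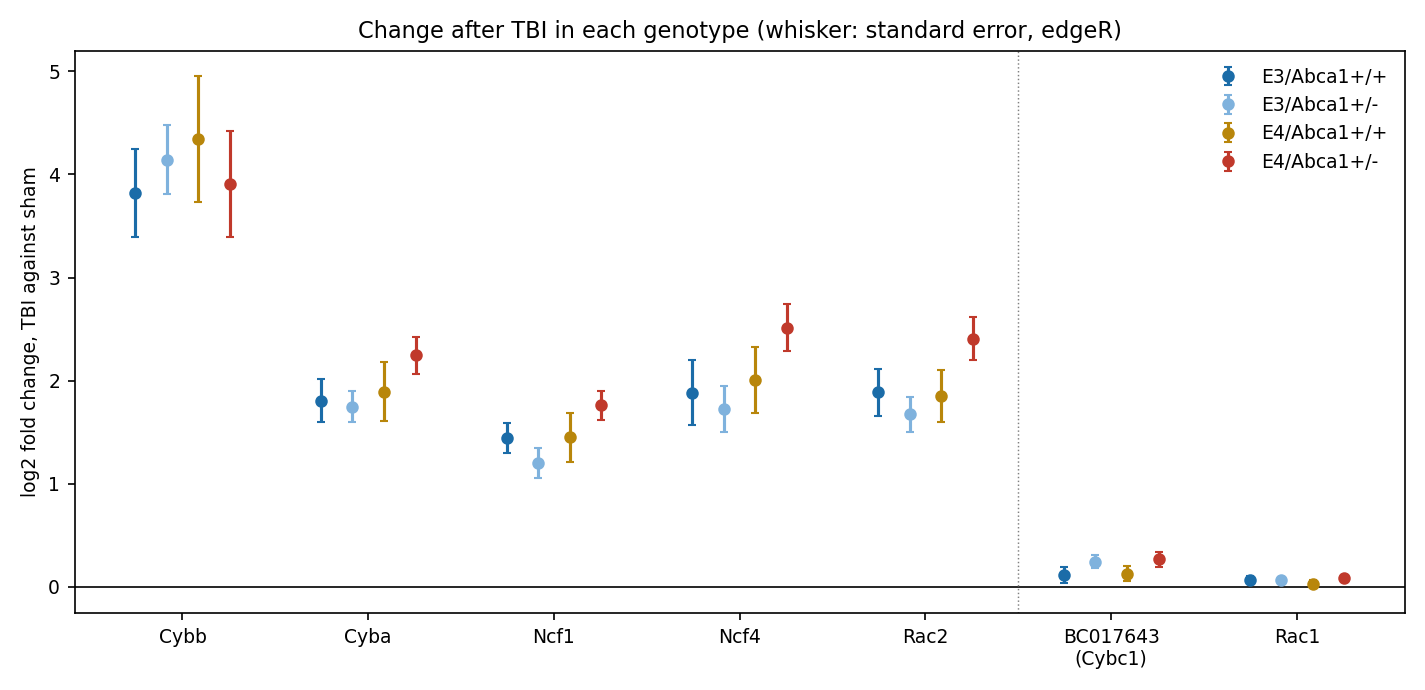
Points are log2 fold changes of TBI against sham on the y axis, with the standard error as a whisker, for the 5 members (left of the dotted line) and 2 partner genes, coloured by genotype. Cybb lies at 3.82 to 4.34, the other 4 members between 1.20 and 2.52, and BC017643 (Cybc1) and Rac1 lie near 0.

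Levels can be compared between genes only per length, so CPM was divided by the length of each gene's merged exons. Cyba (744 bases of exon, chr8:122424771-122432940) was the highest member per kb, with 7.09 CPM per kb in sham (SD 1.59, n = 29) and 28.04 in TBI mice (SD 12.0, n = 29). Ncf1 (2882 bases, chr5:134220053-134229628) had 2.51 (SD 0.463) and 7.12 (SD 2.27) CPM per kb, and Rac2 (3038 bases, chr15:78559169-78572783) 0.807 (SD 0.219) and 3.30 (SD 1.42). Ncf4 (1464 bases, chr15:78244164-78262582) had 0.488 (SD 0.186) and 2.13 (SD 0.859) CPM per kb, and Cybb (4752 bases, chrX:9435252-9487766) 0.133 (SD 0.140) and 2.28 (SD 1.60). Cybb was thus lowest of the 5 per kb in sham mice and stood beside Ncf4 in injured mice, although its product pairs with that of Cyba. The difference log2(Cybb + 1) - log2(Cyba + 1), in CPM, was higher after TBI by 0.83 in E3/Abca1+/+, 1.09 in E3/Abca1+/-, 0.83 in E4/Abca1+/+ and 1.01 in E4/Abca1+/- mice. With 0.1 in place of 1 as the pseudocount these differences were 1.66, 2.15, 2.06 and 1.96, so their size depends on the pseudocount and their direction did not.

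Among the injured groups E4/Abca1+/- had the highest mean of all 5 members. Cyba averaged 29.4 ± 7.76 CPM (SD, n = 8) there and 16.8 to 18.6 CPM in the other 3 groups, Ncf1 25.8 ± 5.25 against 17.5 to 19.0, and Rac2 14.4 ± 4.23 against 7.91 to 8.95. For these 3 genes the gap to the next group was larger than the larger SD of the pair. Cybb averaged 16.2 ± 8.81 CPM (SD, n = 8) against 8.36 to 9.25, and Ncf4 4.04 ± 1.36 against 2.73 to 2.82, gaps that lay within the SD. The other 3 injured groups did not differ beyond their spread in any member, nor did any sham groups that were neighbours in order of their mean.

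To ask whether losing 1 copy of Abca1 changed the oxidase genes, Abca1+/- was compared with Abca1+/+ within each isoform and treatment. No member was called in any of the 4 comparisons, in which edgeR called 2.27% (E3 sham), 0.0923% (E3 TBI), 0.870% (E4 sham) and 1.36% (E4 TBI) of all genes in either direction, and 2493, 1393, 2407 and 2772 genes at an unadjusted p under 0.05. By DESeq2 no member was called in the first 3 and 1 in injured E4 mice. In injured E4 mice all 5 were higher with 1 copy, by 0.85 for Cyba (SE 0.27, adjusted p = 0.110), 0.84 for Rac2 (SE 0.24, 0.0865), 0.99 for Cybb (SE 0.47, 0.270), 0.57 for Ncf4 (SE 0.28, 0.290) and 0.47 for Ncf1 (SE 0.22, 0.258) on the log2 scale by edgeR, none of which passed. Of the 10 microglial markers all 10 were above 0 in the E4 comparison and 1 was called (Aif1, 0.79, SE 0.18, adjusted p = 0.0384, edgeR), their sum was 641 to 1148 CPM with 2 copies and 812 to 1339 CPM with 1, and their part in the result was not tested. In injured E3 mice the differences ran from -0.22 (Rac2) to 0.07 (Cyba). Leaving out E4/Abca1+/+ TBI replicate 6, Cyba (1.10, adjusted p = 0.0194, edgeR) and Rac2 (1.03, adjusted p = 0.0198) passed, within ranges over 23 alternatives of 0.71 to 1.10 (adjusted p 0.00722 to 0.230) for Cyba and 0.72 to 1.03 (adjusted p 0.00754 to 0.193) for Rac2. In E4 sham mice Cybb differed by 1.42 (SE 0.66, adjusted p = 0.308 by edgeR) and by 0.48 without sham replicate 2. Cyba differed in E4 sham mice by 0.50 (SE 0.16, adjusted p = 0.137, edgeR) and by 0.36 without that replicate, against 0.13 (SE 0.12) in E3 sham mice. Averaged over isoform and injury, Cyba alone was called higher in Abca1+/- mice (0.39, SE 0.12, adjusted p = 0.0135, edgeR), where 9.49% of all genes were called higher, and it was called in all 8 alternatives (0.35 to 0.47). Thinning every library to the lowest total gave 0.47 (adjusted p = 0.0143, edgeR). Thinning evens out the totals only, so any other difference between the deeper and the shallower libraries cannot be told apart from Abca1 copy number.

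To ask whether the APOE isoform mattered, E4 was compared with E3. In injured Abca1+/- mice Rac2 was called higher in E4 (log2 fold change 0.86, SE 0.21, adjusted p = 0.0404, edgeR), 1 member of 5 where 1.35% of all genes were called higher. The other members were higher by 0.66 for Cyba (SE 0.18, adjusted p = 0.0621, edgeR), 0.57 for Ncf1 (SE 0.16, 0.0614), 0.81 for Cybb (SE 0.37, 0.249) and 0.57 for Ncf4 (SE 0.24, 0.207), which did not pass. The Rac2 call was lost on leaving out any of 9 mice, E3/Abca1+/- TBI replicates 1, 2, 3 and 5 and E4/Abca1+/- TBI replicates 1, 3, 5, 7 and 8, with fold changes of 0.74 to 0.87 and adjusted p of 0.0527 to 0.103 by edgeR. It was kept in 13 of 22 alternatives, with adjusted p from 0.00241. In the other 3 comparisons no member was called, where 0.356% (Abca1+/+ sham), 0.211% (Abca1+/+ TBI) and 5.11% (Abca1+/- sham) of all genes were, and members differed by -0.19 to 0.01 in injured Abca1+/+ mice. Averaged over Abca1 and injury no member was called (0.07 to 0.26), where 8.03% of all genes were called higher and 6.99% lower. These 4 comparisons gave 1337, 1090, 3489 and 4275 genes at an unadjusted p under 0.05, and DESeq2 called no member in them.

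Markers of microglia moved with the isoform difference in injured Abca1+/- mice. Of the 10 microglial markers all 10 had a fold change above 0 and 3 were called, among them Aif1 (0.69, SE 0.13, adjusted p = 0.00988, edgeR) and Cx3cr1 (0.48, SE 0.10, adjusted p = 0.0249). The summed level of the list was 673 to 935 CPM in E3/Abca1+/- TBI mice and 812 to 1339 CPM in E4/Abca1+/- TBI mice, and its median log2 fold change was 0.39 against 0.66 for the oxidase genes. Their part in the Rac2 result was not tested.

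Whether the response to injury differed between genotypes was tested by interaction terms. No member was called in any of the 5 tests, and edgeR called 0.00% of genes in 4 of them and 0.00659% in the test of isoform by Abca1 among injured mice. At an unadjusted p under 0.05 the counts over all genes were 337 (isoform by injury, Abca1+/+), 965 (isoform by injury, Abca1+/-), 327 (Abca1 by injury, E3), 730 (Abca1 by injury, E4) and 1546 (isoform by Abca1, TBI), and DESeq2 called no member either. In Abca1+/- mice the rise was larger in E4 than in E3 by 0.79 for Ncf4 (SE 0.33, unadjusted p = 0.0244), 0.73 for Rac2 (SE 0.28, 0.0143), 0.56 for Ncf1 (SE 0.21, 0.0129) and 0.50 for Cyba (SE 0.25, 0.0541), with adjusted p of 0.734 to 0.782 by edgeR. For Cybb the term was -0.23 (SE 0.70), and 0.74 without sham replicate 2. Among injured mice Rac2 had the largest isoform by Abca1 term, 1.06 (SE 0.34, unadjusted p = 0.00462, adjusted p = 0.330, edgeR).

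Averaged over the sham and injured groups, edgeR called Cybb and Ncf1 higher in females than in males. With group as a factor, edgeR gave log2 fold changes of 0.69 for Cybb (SE 0.23, adjusted p = 0.0441) and 0.30 for Ncf1 (SE 0.08, adjusted p = 0.0148), 2 members of 5 where 5.21% of all genes were called higher in females. Cyba (0.28, SE 0.11, adjusted p = 0.0803), Rac2 (0.18, SE 0.11, 0.294) and Ncf4 (0.17, SE 0.14, 0.461) did not pass. Without the male sham replicate 2, Cybb was 0.90 (adjusted p = 0.00164), Ncf1 0.32 (0.00570) and Cyba 0.33 (0.0277), so that 3 passed by edgeR, while DESeq2 gave Cybb 0.51 with an adjusted p of 0.167. Over 7 alternatives the adjusted p ran from 0.00164 to 0.167 for Cybb and from 0.00570 to 0.0208 for Ncf1.

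By level, the sexes were farther apart in injured than in sham mice for Cybb. In TBI, Cybb averaged 14.6 ± 7.74 CPM (SD, n = 14) in females and 7.38 ± 5.70 CPM (SD, n = 15) in males, while in sham it averaged 0.547 ± 0.234 (n = 14) and 0.711 ± 0.904 CPM (n = 15), the male SD holding replicate 2. Injured females also had the higher mean of Cyba (24.2 ± 8.68 against 17.8 ± 8.27 CPM), Ncf1 (23.5 ± 6.35 against 17.8 ± 5.59), Rac2 (11.4 ± 4.72 against 8.75 ± 3.62) and Ncf4 (3.47 ± 1.37 against 2.79 ± 1.09). The female mean was the higher one in 4 of 4 injured genotypes for Cybb, Cyba, Ncf1 and Rac2 and in 3 of 4 for Ncf4, and the ranges of the sexes overlapped over all injured mice. Among sham mice the female mean was higher in 3 of 4 genotypes for Ncf1, Cyba and Rac2, in 2 of 4 for Cybb and in 1 of 4 for Ncf4, and Ncf1 averaged 7.67 ± 1.24 CPM (SD, n = 14) in females and 6.83 ± 1.33 CPM (SD, n = 15) in males. In E3/Abca1+/+ sham mice every female was above every male in Ncf1 (7.93 to 9.14 against 5.11 to 6.34 CPM). Among injured mice the same was seen in 1 of 4 genotypes for Cybb, Cyba, Ncf1 and Rac2 and in 2 of 4 for Ncf4. Each such set held 3 or 4 mice of a sex, and the share of all genes that separate in this way was not computed. The sex by injury term was above 0 for all 5 members, at 1.71 for Cybb (SE 0.51, unadjusted p = 0.00139, adjusted p = 0.334, edgeR), but none was called, and 0.00% of genes were. Without replicate 2 the Cybb term was 0.95 (adjusted p = 0.770, edgeR), at the end of a range of 0.95 to 1.71 over 7 alternatives with adjusted p of 0.261 to 0.770. At an unadjusted p under 0.05 this term gave 1133 genes, and DESeq2 called no member. Markers moved here too: 4 of 10 microglial markers, 2 of 9 listed macrophage markers and 1 of 3 listed neutrophil markers were called higher in females, with medians of 0.10, 0.38 and 0.61. Their part in the sex difference was not tested.

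**Figure D3:**
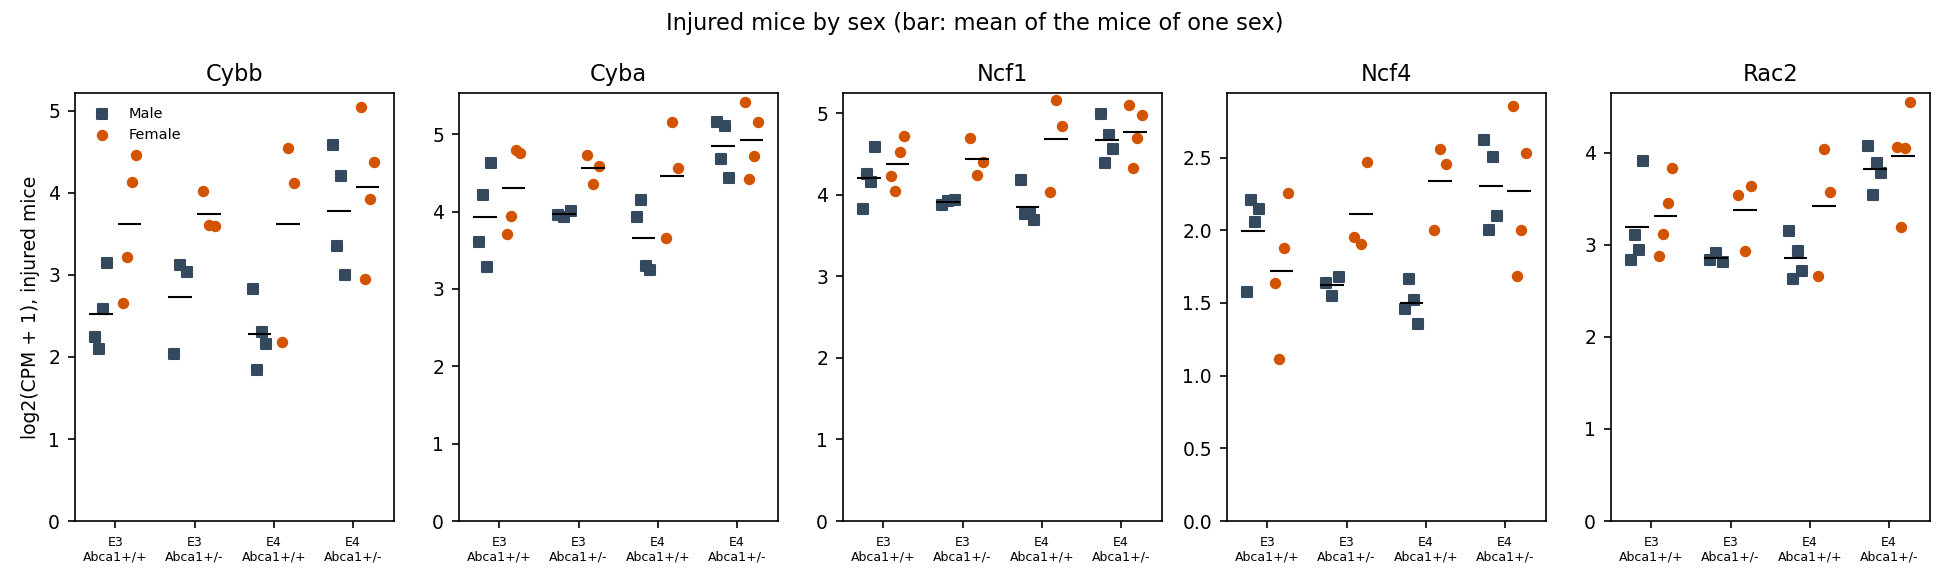
Each point is 1 injured mouse, on the y axis as log2(CPM + 1), split on the x axis by genotype, with males as dark squares, females as orange circles and the mean of each as a bar. Cybb shows the widest gap between the sexes, 14.6 against 7.38 CPM on average, and single females of E4/Abca1+/+ and E4/Abca1+/- lie among the lowest points of their genotype.

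The injured mice that were high in 1 oxidase gene were high in the others. After the group means of log2(CPM + 1) were removed, the 10 pairs of members correlated among the 29 injured mice with Pearson's r of 0.64 to 0.89 (median 0.81) and Spearman's rho of 0.59 to 0.87. By permutation within groups (100000 resamples, two-sided) the largest Benjamini-Hochberg adjusted p over the 10 pairs was 0.000890 for r and 0.00208 for rho. The 3 highest values were those of Ncf1 with Rac2 (0.89), Cybb (0.88) and Cyba (0.87), while Ncf1 with Ncf4 was at 0.81, and Cybb with Ncf4 was the loosest at 0.64. Leaving out the 2 mice farthest from the median gave r of 0.55 to 0.87, and the ranges within subsets were 0.54 to 0.91 in Abca1+/+, 0.71 to 0.94 in Abca1+/-, 0.70 to 0.96 in female and 0.40 to 0.87 in male mice. Among the 29 sham mice r ran from -0.17 to 0.48, and 0 of 10 pairs passed (smallest adjusted p = 0.130, permutation test). Points share their library, so its depth and the cells in the dissected piece enter both genes of a pair.

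**Figure D4:**
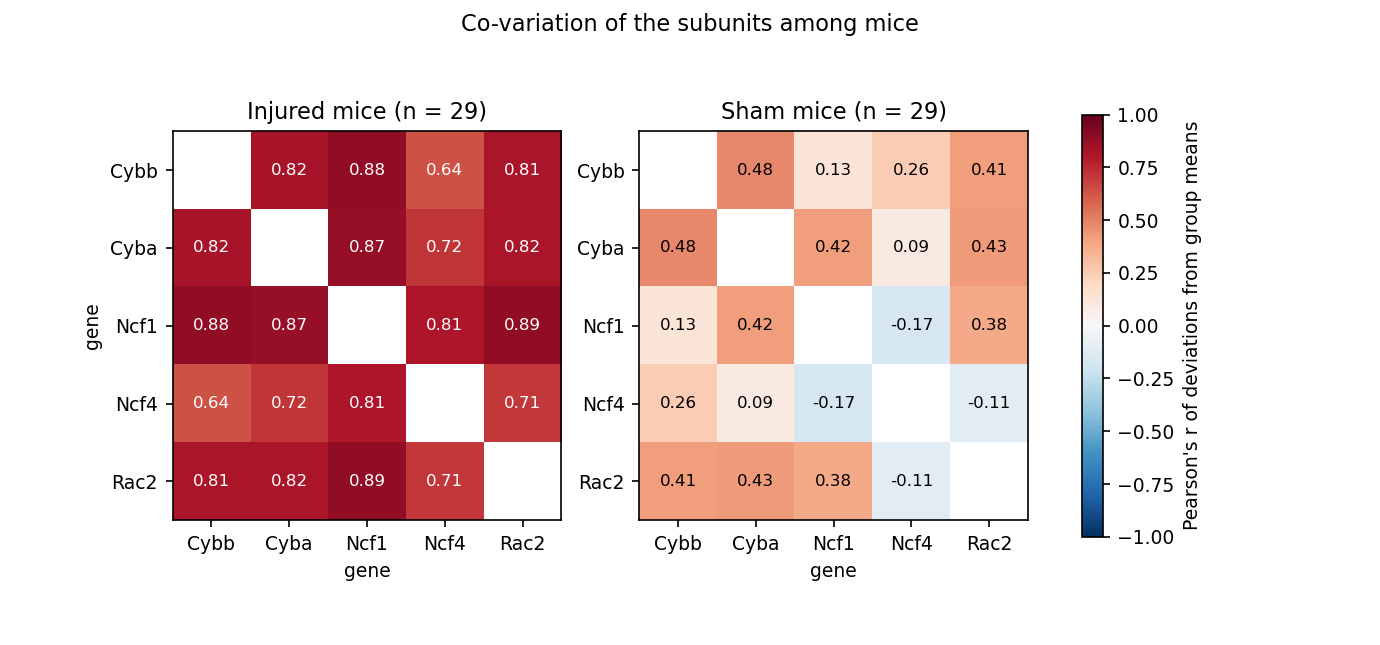
Each cell is Pearson's r between the 2 genes named on the axes, computed from deviations of log2(CPM + 1) from group means, in 29 injured mice (left) and 29 sham mice (right). The injured panel lies between 0.64 and 0.89 and the sham panel between -0.17 and 0.48.

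The genes nearest in pattern to each member were found by the root mean square difference of log2(CPM + 1) over the 58 mice, each gene centred on its sham mean, among 14380 genes of at least 1 CPM on average. Among the nearest to Ncf1 were Arpc1b (0.21), a subunit of the actin-branching complex, and Plek (0.22). Cyba lay beside Ctsd (0.21), C1qc and Ctsz, 2 lysosomal proteases and a complement chain. Rac2 was nearest to Cd53 (0.22), Fcgr4 and Fcer1g, of which the last 2 encode parts of receptors for antibody. Ncf4 lay beside Cd9 (0.26), Grn and Cd63. Cybb had more distant neighbours, Slc43a3 (0.38), Tlr2 (0.40) and Spp1 (0.41), a secreted phosphoprotein.

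Of the partners that the oxidase uses, Rac1 and BC017643 are reported. Rac1, the widely used relative of Rac2, differed by 0.07, 0.07, 0.03 and 0.09 and was called in no single genotype, although the average over genotypes was (0.06, SE 0.01, adjusted p = 0.000173, edgeR), and a single fit over all 58 mice called it in E3/Abca1+/+ and E4/Abca1+/-, the latter also on leaving out E4/Abca1+/- TBI replicate 1. It stood at 82.6 CPM per kb in sham and 86.8 in TBI mice. BC017643 (Cybc1), a chaperone of NOX2 and p22phox, was called higher in E3/Abca1+/- (0.24, SE 0.06, adjusted p = 0.00928, edgeR) and E4/Abca1+/- (0.27, SE 0.08, 0.0131) and not in the Abca1+/+ genotypes (0.12 and 0.13), a difference between genotypes that did not pass (Abca1 by injury, adjusted p of 0.954 or above, edgeR). The E3/Abca1+/- call was lost after thinning all libraries to the lowest total (0.20, SE 0.10, adjusted p = 0.217, edgeR), the end of a range of adjusted p from 0.00303 over 21 alternatives.

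Genes upstream of oxidase assembly mostly rose. Of 19 listed genes for receptors, adaptors and kinases that lead to assembly, 13, 13, 13 and 14 were called higher and 2 lower in each genotype, in the order E3/Abca1+/+, E3/Abca1+/-, E4/Abca1+/+ and E4/Abca1+/-, with medians of 0.92, 0.98, 1.09 and 1.38. Over all 15171 genes 1439, 1527, 683 and 1923 were called lower in the same order, so 2 of 19 is no result about this list. Tlr2, a receptor for bacterial lipoproteins that primes the oxidase, rose by 2.87 (SE 0.39) to 3.47 (SE 0.28). Tyrobp, the adaptor of several myeloid receptors, rose by 1.90 to 2.24, Itgb2, the chain shared by leukocyte integrins, by 1.72 to 2.32, Cd14 by 1.62 to 2.21 and Fcgr1 by 1.56 to 2.10. Hvcn1, the proton channel that balances the charge moved by the oxidase, rose by 0.85 to 1.46. The 2 that fell were the kinases Prkcb (-0.37 to -0.30) and Pak1 (-0.26 to -0.23), both abundant in neurons. In E4/Abca1+/+ mice only 1 gene was called lower on leaving out TBI replicate 6 or 7 or sham replicate 1, 3 or 6.

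Of 9 transcription factors known to act on these genes or in myeloid cells, 7, 8, 8 and 8 were called higher and none lower. Spi1, which encodes the myeloid factor PU.1, rose by 1.48 (SE 0.19), 1.42 (SE 0.16), 1.78 (SE 0.16) and 1.88 (SE 0.17) on the log2 scale. Irf8, its partner in myeloid cells, rose by 1.60 (SE 0.19), 1.73 (SE 0.16), 1.65 (SE 0.24) and 1.86 (SE 0.20), and Runx1 by 1.46 to 2.10. Adjusted p of Spi1, Irf8 and Runx1 was 0.00122 or smaller in each genotype by edgeR. Cebpb passed in none of the 4 (-0.06 to 0.44).

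Oxidant defence and fuel supply changed less than the oxidase. Of 25 defence genes 10, 12, 9 and 14 were called higher and 1 lower, with medians of 0.12, 0.18, 0.12 and 0.18. Over all 15171 genes 1439, 1527, 683 and 1923 were called lower. Hmox1, which degrades haem, rose by 1.30 to 1.87, Nfe2l2, the master factor of the antioxidant response, by 0.88 to 1.19, and Prdx6, a peroxiredoxin, by 0.85 to 1.08. Sod2, the mitochondrial superoxide dismutase, was the gene called lower (-0.25 to -0.13), and the cytosolic Sod1 was called in no genotype (-0.01 to 0.06). No defence gene was called lower in E4/Abca1+/+ mice after thinning or on leaving out TBI replicate 2, 3, 5, 6 or 7 or sham replicate 1, 2, 3, 5 or 6. After thinning 0 were called lower in E3/Abca1+/- mice, and 2 in E4/Abca1+/- mice, where leaving out TBI replicate 8 also gave 2. Of 6 enzymes of NADPH supply 3, 3, 1 and 4 were called higher, with Pgd, of the pentose phosphate pathway, at 0.17 (adjusted p = 0.0540 by edgeR, not called) to 0.44. In E3/Abca1+/- mice 1 was called without TBI replicate 6 or after thinning, in E4/Abca1+/+ mice 2 without TBI replicate 4 or sham replicate 2 or 7, and in E4/Abca1+/- mice 2 after thinning. Of 6 other listed enzymes that make oxidants or nitric oxide 2, 4, 2 and 3 were called higher, while Nos2, the inducible nitric oxide synthase, was called in none (-0.56 to 0.50). In E4/Abca1+/+ mice 1 was called after thinning or on leaving out TBI replicate 1, 6 or 7 or any sham replicate but 2.

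**Figure D5:**
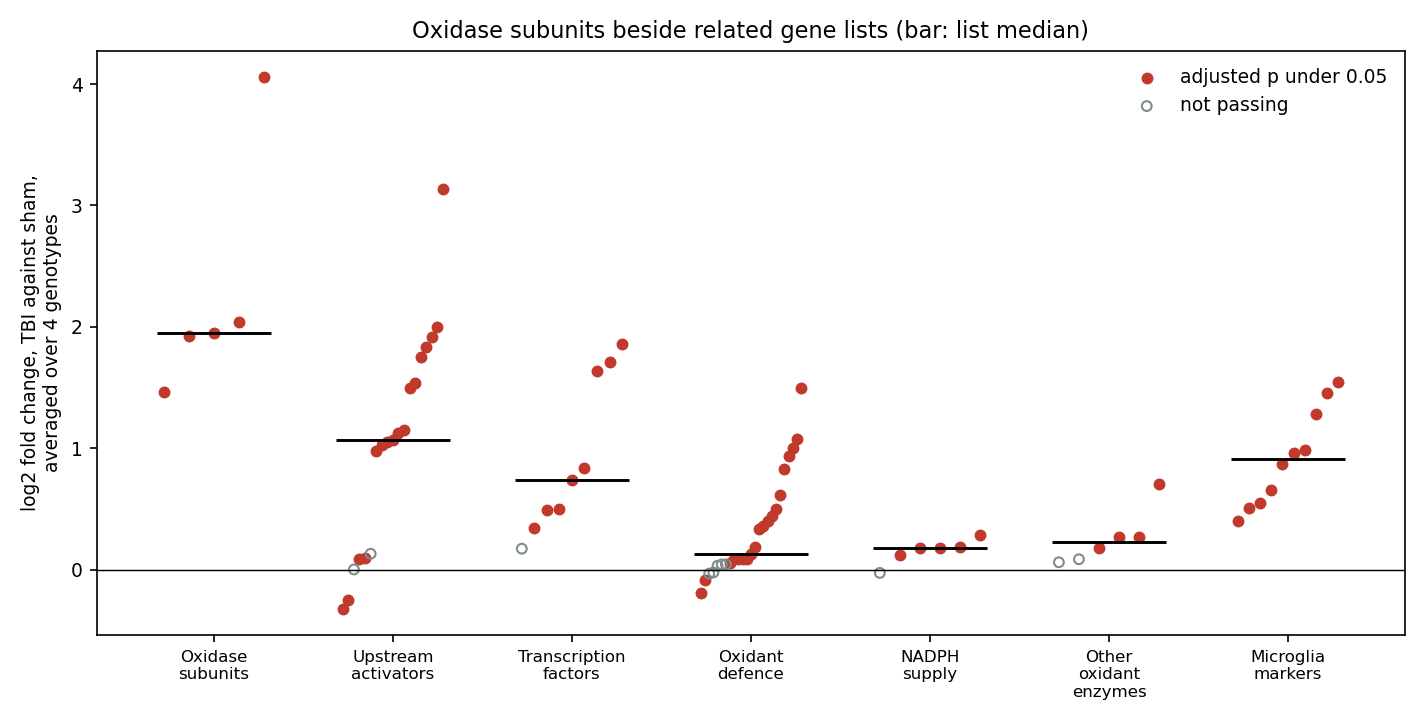
Each point is 1 gene, with its log2 fold change of TBI against sham averaged over 4 genotypes on the y axis and its list on the x axis, filled where the adjusted p was under 0.05, and the bar is the list median. The 5 oxidase subunits lie at 1.47 to 4.06, above the medians of 1.07 for upstream activators, 0.74 for transcription factors, 0.91 for microglia markers and 0.13 for oxidant defence.

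Markers of several cell types that carry the oxidase moved with injury. All 10 microglial markers were called higher in each genotype, by a median of 0.90, 0.83, 0.87 and 1.05 on the log2 scale, and their summed level was 368 to 560 CPM in sham and 641 to 1339 CPM in TBI mice. P2ry12, which marks resting microglia, rose by 0.27 to 0.50. Averaged over the genotypes, Cybb, Ncf4, Rac2 and Cyba had larger fold changes than any of the 10 markers, of which Fcrls was the highest at 1.54, and Ncf1 lay between Fcrls and Aif1 (1.46). Of 10 macrophage markers 9 were listed and 5 to 6 were called higher, the sum going from 41.7 to 99.5 CPM in sham to 58.9 to 263 CPM in TBI, with Cd5l at 0 to 0.977 and 0.670 to 21.0 CPM. Leaving out TBI replicate 1 gave 8 called in E3/Abca1+/- mice, and the single fit over all mice gave 3 in E4/Abca1+/+ mice. Of 11 neutrophil markers 3 were listed, with S100a8 at a median of 0.111 CPM in sham and 1.02 CPM in TBI, and Csf3r at 5.87 and 19.7 CPM. Of 9 lymphocyte markers 2 were listed, with a sum of 0 to 1.10 and 0.652 to 3.77 CPM. These lists also held large fold changes by edgeR averaged over the genotypes, where 4403 of all 15171 genes were called higher and 3685 lower. The macrophage markers ran from -0.01 to 6.82 (median 0.95, 8 of 9 called higher). The 3 neutrophil markers ran from 1.80 to 3.61 (median 2.94) and the 2 lymphocyte markers from 1.06 to 3.58, all of them called higher. Of 7 neuronal markers 6 were called lower on average over the genotypes, with a sum of 7974 to 9064 CPM in sham and 5770 to 8110 CPM in TBI mice. All 7 astrocyte markers were called higher on average, with a sum of 5394 to 6957 CPM in sham and 6764 to 10977 CPM in TBI mice. The part of these markers in the rise of the oxidase genes was not tested, and in bulk tissue more cells of a type and more RNA per cell cannot be told apart.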

How the data were processed

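RNA-seq libraries from 58 mice were processed by the authors, whose notes name Subread 1.5.0, featureCounts, edgeR and mm10 (GRCm38). The deposited values are whole-number counts per gene for 15171 genes, and the authors' filter on genes was not given in the sources used here. Of the deposited counts, 2 empty lines were left out, and 23 genes whose symbol stood as a number were named by Entrez identifier. TMM factors were computed over all mice. Each comparison was tested with edgeR 4.0.16 (quasi-likelihood, R 4.3.3) on the mice compared, with Benjamini-Hochberg adjustment over all genes at 0.05, and the standard error was the absolute log2 fold change divided by the square root of F. The filter on low counts removed 0 genes. DESeq2 1.42.0, other scaling, filters, thinning, sex as a covariate, a single fit and leaving out each mouse were alternatives. Exon lengths came from GENCODE vM21 protein-coding transcripts. The 183 pairs of libraries within groups held 0 identical pairs. The tests were checked on simulated data. Members and gene lists were chosen with earlier results of these data known. Examples from lists were taken by largest mean absolute change after TBI or as partners of assembly, while Hvcn1, Prkcb, Pak1, Cebpb, Sod1, Sod2 and P2ry12 were named after their values were seen. Listed genes outside the table were not analysed here. Some results are not reported here.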

Additional observations from a re-analysis of the deposited data

Results flagged for a closer look

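In 40 sets of a member in a group of mice, the highest or lowest mouse was compared with the rest by its gap as a share of the range (Dixon's test at 95%), and 4 stood apart, where chance gives about 1 in 20. Cybb measured 3.91 CPM in sham replicate 2 of E4/Abca1+/- (male), against 0.274 to 1.06 CPM in the other mice of the group. Rac2 measured 4.44 CPM in the same mouse, against 2.14 to 3.00 CPM. This mouse also had 9.37 CPM of Clec7a, a receptor of activated microglia that recognises fungal glucans, 6.43 CPM of Itgax and 673 CPM of Gfap, an astrocyte filament, each the highest of its group. Its summed microglial markers were 560 CPM against 391 to 476 CPM in the others. Its summed neutrophil markers and its summed lymphocyte markers were also the highest of the group, as was its Cd5l at 0.977 CPM. Its S100a8, at 0.0815 CPM, its S100a9 and its summed macrophage markers lay within the range of the group. The high neutrophil sum thus came from Csf3r, the remaining listed neutrophil marker. The lymphocyte sum rested on 2 listed genes at low levels. Whether this mouse held more neutrophils or lymphocytes was not tested. Ncf1 measured 10.2 CPM in sham replicate 6 of E3/Abca1+/- (female), against 6.13 to 7.86 CPM. Ncf4 measured 4.54 CPM in TBI replicate 6 of E3/Abca1+/- (female), against 1.93 to 2.87 CPM.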

How the results depend on the processing

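The rise of all 5 members after TBI kept its direction and its call in each genotype under every alternative run, with a largest adjusted p of 0.00300 (edgeR or DESeq2). No paired analysis was possible because the labels carry a separate identifier for each mouse and the replicate numbers only follow accession order. Leaving out 1 mouse moved the number of members called to 0 to 2 for Abca1 in injured E4 mice and to 0 to 3 for E4 against E3 in injured Abca1+/- mice. DESeq2 called 1 and the single fit 2 members in the former, DESeq2, the sex covariate and the single fit called 3 in the latter, and DESeq2 called 1 between the sexes. Among sham mice, r turned to -0.033 (pseudocount 0.1), -0.043 (without 2 mice) and -0.11 (Abca1+/+) for Cyba with Ncf4, -0.10 (without 2 mice) and -0.028 (Abca1+/+) for Cybb with Ncf1, 0.039 and 0.27 (without 2 mice, Abca1+/-) for Ncf1 with Ncf4, and 0.26 and 0.39 (likewise) for Ncf4 with Rac2. Single log2 differences, none of them called, also turned. With DESeq2 size factors and with DESeq2, Rac2 for Abca1 in E3 sham was -0.00174 and -0.00211. With the sex covariate, Ncf4 was -0.018 for Abca1 in E3 TBI and -0.014 for isoform in Abca1+/+ TBI, and Ncf1 was -0.053 for isoform by injury in Abca1+/+. After thinning, Ncf4 was -0.062 (Abca1, E3 TBI), -0.32 (Abca1, E4 sham) and 0.069 (isoform, Abca1+/+ sham), and Ncf1 was 0.0019 (isoform, Abca1+/+ TBI) and -0.068 (isoform, Abca1+/- sham). Rac2 for isoform by injury in Abca1+/+ was 0.014 with DESeq2 and 0.0080 after thinning. Without sham replicate 2 of E4/Abca1+/-, an alternative chosen after seeing the data along with TMM over the compared mice only, Ncf4 was -0.072 (Abca1, E4 sham), Ncf1 -0.048 and Rac2 -0.051 (isoform, Abca1+/- sham), and Cybb 0.74 (isoform by injury, Abca1+/-) and 0.52 (Abca1 by injury, E4). The cause was not tested. Depth limits Cybb and Ncf4 in sham mice, where 8 and 3 of 29 libraries held 3 counts or fewer.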
